A study of Mus musculus with 2 samples.

Results

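The S100 genes described here are S100a1, S100a4, S100a6, S100a10, S100a11, S100a13, S100a16 and S100b, which encode small calcium-binding proteins found in brain. They were taken by exact symbol among the non-control probes of both arrays, which gave 8 genes measured by 11 probes, out of 27567 genes and transcripts with a probe well above background on at least 1 array. The calprotectin genes S100a8 and S100a9 are not among them. The samples were hippocampal RNA of 5/6Nx mice (1 array) and of sham-operated mice (1 array), both of the outbred ICR strain and both taken 8 weeks after the operation. The name 5/6Nx stands for 5/6 nephrectomy, an operation that leaves a small remnant of kidney and is used to model chronic renal failure. The RNA was copied into Cy3-labelled cRNA and read on a 1-colour array of 60-base probes. The age, the sex and the number of animals behind each RNA are not stated in the labels. With 1 array per group there was no replicate and no test, so the values below describe these 2 RNA samples, and the number of arrays limits their precision.

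S100 proteins form dimers, and each subunit carries a pair of EF-hand motifs, helix-loop-helix folds that bind calcium in the loop. Calcium binding exposes a surface that docks on target proteins, and several members are also released from cells and act on receptors. In brain S100b is best known as a product of astrocytes and of part of the oligodendrocyte lineage, S100a4, S100a6 and S100a11 are abundant in fibroblasts and other motile cells, and S100a10, also called p11, is found in neurons as well as in vessels and connective tissue. In bulk tissue, fewer cells of a type and less RNA per cell cannot be told apart.

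The probes themselves show what was measured. Those of S100a4, S100a6 and S100a1 below have in common a stretch of 12 bases that is identical at 10 positions. It lies in the part of these genes that codes for the second EF-hand. The capitals mark that stretch, which reads TTCNAGGAGTAN with N for any base, and all sequences run 5′ to 3′ in the sense of the transcript.
S100a4, chr3:90409734-90409793, mm9, plus strand: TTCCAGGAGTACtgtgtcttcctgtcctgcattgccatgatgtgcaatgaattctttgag
S100a6, chr3:90418160-90418219, mm9, plus strand: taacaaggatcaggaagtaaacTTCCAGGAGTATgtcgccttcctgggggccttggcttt
S100a1, chr3:90315191-90315250, mm9, minus strand: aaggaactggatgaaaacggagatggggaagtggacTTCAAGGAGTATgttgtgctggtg
On the 3 probes the log2 differences, 5/6Nx minus sham, were 0.99 for S100a4, 0.50 for S100a6 and 0.04 for S100a1, and the last was within the technical error given below. Searched on both strands, the stretch occurs in 8 of 55681 probes (0.0144%), and 6 of these hold it on the strand printed on the array. It was chosen as the best-matching 12-base window of these 3 probes, so its rarity follows from that choice and tests nothing. Of the 11 probes described here 3 hold it, as do 3 of 21 probes of the whole S100 family. The remaining bases of the 3 probes are not the same throughout, although some of them also match.

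S100a4 and S100a1 have another probe nearer to the end of the transcript, and the only probe of S100a13 also lies there. The last 30 bases of each are given with the polyadenylation hexamer AATAAA in capitals, since the labelling starts from the poly(A) tail and probes near it sample the transcript end. Of all probes 13.5% hold this hexamer on either strand and 10.1% on the printed strand.
S100a4, second probe, bases 31 to 60: caaattcAATAAAaggttttgaaactatta
S100a1, second probe, bases 31 to 60: cttgttttAATAAAgccttctctctcacca
S100a13, bases 31 to 60: gcccccaAATAAAgctttcttcttgaaaca
S100a10 and S100b each rest on a single probe, of which the first 30 bases are given with no letters marked.
S100a10, bases 1 to 30: caaatgagatccaactccaattcaacaatc
S100b, bases 1 to 30: gaagctggacttgaggctttctaacttgca
For S100a1, S100a4 and S100a16, which have 2 probes each, the distance between the probes is the same in the transcript and in the genome, at 232, 174 and 346 bases in that order. No intron therefore lies between the probes of a gene. Coding and untranslated parts were not annotated in the tables used.

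All 11 probes were well above background on both arrays, and 0 of them carried an outlier or saturation flag. Around these spots the local background lay between 59 and 67 in 5/6Nx and between 58 and 67 in sham, far below the spots' own mean signals of at least 887 in 5/6Nx and 694 in sham. Of all spots, 72.5% were well above background on the 5/6Nx array and 72.7% on the sham array. Intensities are the scanner's processed signal with the error that its software assigns to the spot, which was 10% of the signal for every S100 probe. This error propagates to 0.20 on the log2 scale for a difference between the arrays, and where a gene had several probes, the SD among their differences was 0.20 at the median. The spot error is the value assigned by the scanner software, and its 0.20 is what is called the technical error here. The SD among probes compares different stretches of a transcript, so it need not be technical alone. Between spots of the same probe the SD of the difference was smaller, 0.055 at the median. None of these values says how much animals vary. Each array was divided by its own 75th percentile (1263 in 5/6Nx and 1452 in sham) before log2 values were subtracted, sham from 5/6Nx, and the median over all 25917 measured genes was 0.05.

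S100a4 had the highest difference of the 8 genes. It encodes a protein also known as fibroblast-specific protein or metastasin, which binds non-muscle myosin and acts in cell motility. The probe nearer the transcript end (chr3:90409908-90409967, mm9) had an intensity of 1324 ± 132 in 5/6Nx and 739 ± 74.1 in sham. The EF-hand probe printed above had 1122 ± 112 in 5/6Nx and 649 ± 65.1 in sham. On both probes the 5/6Nx array was thus the brighter, although its 75th percentile was the lower. The log2 differences were 1.04 (2.06-fold) and 0.99 (1.99-fold), so the probes lay on either side of the 2-fold line. Of all measured genes, 4.45% had a higher difference than S100a4. The 2-fold call of S100a4 did not hold under every scaling: it was 2.01-fold higher in the authors' deposited table, against 1.85-fold after scaling to the array median and 1.77-fold after scaling to the spike-in probes.

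S100a6, or calcyclin, is expressed in proliferating and differentiated cells including fibroblasts and some astrocytes and neurons. S100a5 lies between S100a6 and S100a4 on the chromosome. The S100a6 probe had an intensity of 6652 ± 665 in 5/6Nx and 5402 ± 540 in sham. The 5/6Nx array was again the brighter, with a log2 difference of 0.50 (1.42-fold). This was larger than the technical error but short of 2-fold, and 16.9% of measured genes had a higher value.

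S100a10 had the lowest difference. Its product has lost the ability to bind calcium, forms a complex with annexin A2 at the plasma membrane, and carries ion channels and serotonin receptors to the surface of neurons. Its only probe (chr3:93368437-93368496, mm9, plus strand) had an intensity of 852 ± 85.3 in 5/6Nx and 2148 ± 215 in sham. The 5/6Nx array was the dimmer by far more than the spot error, with a log2 difference of -1.13, that is 2.19-fold lower. Of all measured genes 2.42% had a lower difference. Under the 10 other ways of processing, S100a10 ranged from -1.35 to -1.12, so it stayed at least 2-fold lower in each.

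S100a11, or calgizzarin, a partner of annexin A1 in membrane organisation and repair, lies beside S100a10 but had nearly the same level in both samples. Its intensity was 1012 ± 101 in 5/6Nx and 1181 ± 118 in sham, and the log2 difference of -0.02 was within the technical error. The probe (chr3:93330022-93330081, mm9) also lists predicted transcripts of other loci in the array annotation, so its signal may include near-identical copies.

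S100b is the member most used as a marker of astrocytes, from which it is also secreted. Its probe (chr10:75723783-75723842, mm9, plus strand) had an intensity of 34561 ± 3456 in 5/6Nx and 50797 ± 5080 in sham. The 5/6Nx array was the dimmer, with a log2 difference of -0.35 (1.28-fold lower), which exceeded the technical error and was short of 2-fold. For comparison, 17.4% of measured genes had a lower value.

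S100a16, a broadly expressed member whose function is less well known, was measured by 2 probes that gave almost the same answer. The first (chr3:90346529-90346588, mm9) had an intensity of 7604 ± 760 in 5/6Nx and 12188 ± 1219 in sham, and the second (chr3:90346875-90346934, mm9) had 10516 ± 1052 in 5/6Nx and 16500.2 ± 1650.0 in sham. Both were dimmer in 5/6Nx, with log2 differences of -0.48 and -0.45, a gap of 0.03 between the probes. This too was short of 2-fold, and 13.3% of measured genes had a lower difference than the second probe.

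S100a1, which regulates the calcium release channels of muscle and is present in brain, had 5098 ± 510 in 5/6Nx and 5715 ± 571 in sham on its EF-hand probe. On the probe nearer the transcript end it had 4554 ± 455 in 5/6Nx and 5757 ± 576 in sham. The log2 differences of 0.04 and -0.14 had opposite signs and were both within the technical error, so no direction can be given. S100a13, which takes part in the release of the growth factor FGF1 without a signal peptide, had 5752 ± 575 in 5/6Nx and 6933 ± 693 in sham (chr3:90328442-90328501, mm9). Its log2 difference of -0.07 was also within the technical error. In the RefSeq mouse annotation (GRCm38.p6) S100a1 and S100a13 lie head to head on opposite strands with overlapping starts.

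**Figure D1:**
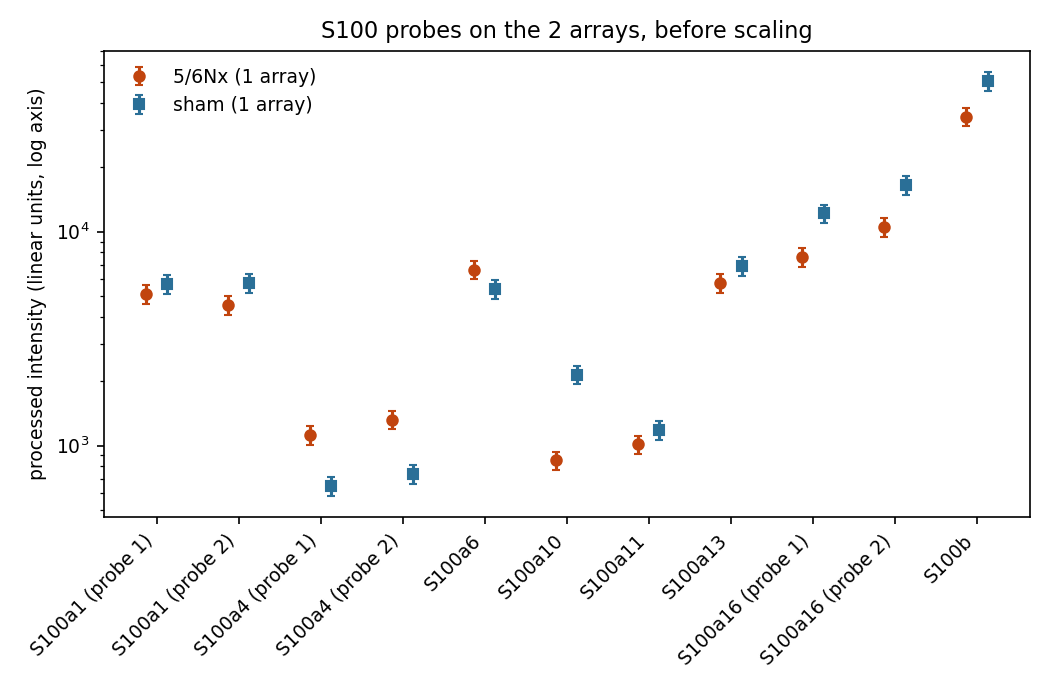
Processed intensity (log axis) of the 11 probes of the S100 genes on the 5/6Nx array (circles) and the sham array (squares), before scaling, with the scanner software's error for the spot as bars. S100a4 was brighter in 5/6Nx on both probes and S100a10 dimmer (852 in 5/6Nx and 2148 in sham). Heights of different probes cannot be compared with each other.

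**Figure D2:**
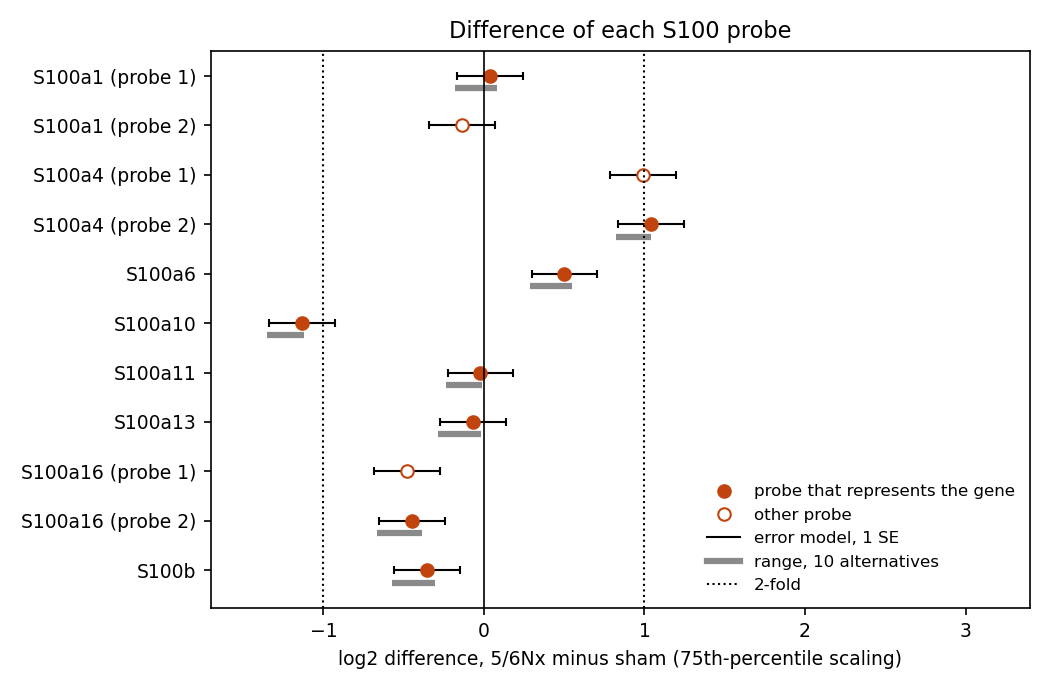
Log2 difference, 5/6Nx minus sham, of each probe after scaling to the 75th percentile, with 1 SE from the scanner's error model (thin bars) and, for the probe that represents its gene, the range over 10 alternatives (thick grey bars). Dotted lines mark 2-fold, which S100a10 (-1.13) passed and the probes of S100a4 (1.04 and 0.99) straddled.

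The authors' deposited table, whose columns have equal medians and whose making is not described in the sources used here, gave each gene's level on a second scale. S100a4 had 1419 in 5/6Nx and 706 in sham in the authors' deposited table on the probe nearer the transcript end, and 1194 in 5/6Nx and 622 in sham on the EF-hand probe. For S100a6 the authors' deposited table gave 7271 in 5/6Nx and 4996 in sham (a log2 difference of 0.54), and for S100a10 it gave 901 in 5/6Nx and 2002 in sham (-1.15). In the authors' deposited table too, S100a4 and S100a6 were the brighter and S100a10 the dimmer in 5/6Nx. S100b had 37946 in 5/6Nx and 46854 in sham (-0.30) in the authors' deposited table, and the second probe of S100a16 had 11563 in 5/6Nx and 15115 in sham (-0.39). S100a11 stood there, in the authors' deposited table, at 1072 in 5/6Nx and 1118 in sham (-0.06), and S100a13 at 6295 in 5/6Nx and 6380 in sham (-0.02). The probes of S100a1 kept opposite signs in the authors' deposited table, with 5548 in 5/6Nx and 5293 in sham (0.07) on the EF-hand probe and 4957 in 5/6Nx and 5330 in sham (-0.10) on the other. Both in the authors' deposited table and after scaling to the 75th percentile, S100a4 was at the top of the 8 differences and S100a10 at the bottom.

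In all, 1 of the 8 genes (S100a4) was at least 2-fold higher and 1 (S100a10) at least 2-fold lower. Over all measured genes, 4.89% passed 2-fold upwards and 3.29% downwards, together 8.18%. A count of 1 gene in each direction out of 8 is too small to set the S100 genes apart from that background. The difference exceeded the technical error in 5 of the 8 genes, as it did in 62.7% of all measured genes. The median of the 8 differences was -0.05, with 3 genes above 0 and 5 below. Of these, S100a1 above 0 and S100a11 and S100a13 below it were within the technical error, so their signs are not settled. Over all 25917 measured genes, 14347 lay above 0 and 11570 below.

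Position along the genome was the next property on which the genes could be compared. Of 14 genes named S100 in the array annotation on chromosome 3, 7 are described here, and S100b lies apart on chromosome 10. The first 12, from S100a1 to S100a9, span 182 kb, and a gap of 2833 kb separates them from S100a11 and S100a10, whose probes lie 38.4 kb apart. Neighbours did not share a direction throughout. S100a2 (0.23), S100a3 (0.66, with an intensity of 166 in 5/6Nx and 121 in sham), S100a4 (1.04) and S100a6 (0.50) had values above 0. S100a5, between S100a4 and S100a6, had -0.35 (184 in 5/6Nx and 269 in sham). S100a11 (-0.02) and S100a10 (-1.13) differed by more than the technical error although they are neighbours.

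**Figure D3:**
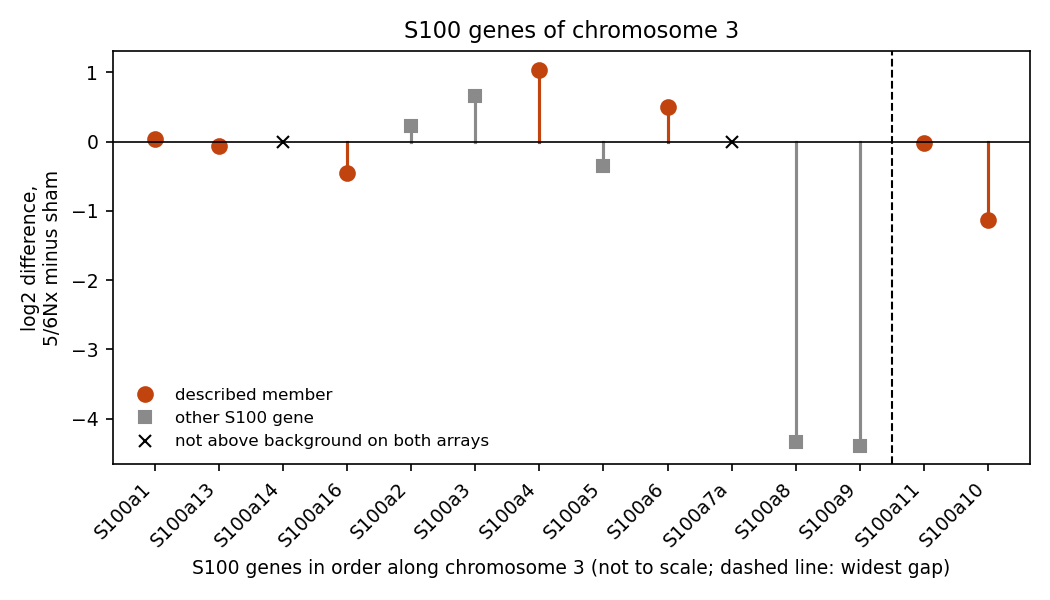
Log2 difference, 5/6Nx minus sham, of the S100 genes in their order along chromosome 3 (order only, not to scale). Circles are the genes described here, squares other S100 genes and crosses genes not above background on both arrays, and the dashed line is the gap of 2833 kb. S100a2, S100a3, S100a4 and S100a6 lie above 0, S100a1 hardly so, and S100a8 and S100a9 far below.

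Among 10 other S100 genes, 5 were measured on both arrays, and S100a8 and S100a9 were the 2 at least 2-fold lower. The median of the 5 was -0.35, and it was 0.14 over the larger set kept when dim probes were not filtered. S100a8, a chain of the neutrophil protein calprotectin, had an intensity of 32.4 in 5/6Nx and 754 in sham, a log2 difference of -4.34. S100a9, the other chain, had 109 in 5/6Nx and 2628 in sham, a difference of -4.39. S100a2 had a difference of 0.23. S100z was above background in 5/6Nx only, at least 2.44-fold higher than in sham, and S100a14 in sham only, at least 1.37-fold lower in 5/6Nx. S100a7a, S100a7l2 and S100g, the last an intestinal and renal calcium carrier, were above background on neither array.

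Known binding partners and receptors of S100 proteins lay on both sides of 0. Of 33 listed genes 32 were measured, of which 3 lay 2-fold or more above and 1 as far below, with 15 above 0, 17 below 0 and a median of -0.09, which ranged from -0.31 to 0.01 over the alternatives. The higher genes were Ahnak, a giant scaffold protein that binds the S100a10 and annexin A2 complex (1.65), Ager, the receptor RAGE that binds extracellular S100b (1.58), and Ryr1, a calcium release channel regulated by S100a1 (1.35). Ahnak had 6843 in 5/6Nx and 2515 in sham on the probe that represents it, but its 4 probes ranged from -0.25 to 1.65. Ager was dim, with 84.3 in 5/6Nx and 32.4 in sham. The lower gene was Anxa1, the partner of S100a11, with 480 in 5/6Nx and 1108 in sham and a difference of -1.01, but its other probe gave 0.70.

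The following partners were picked out after their values were seen, because each belongs to a gene described above. Anxa2, the annexin that holds S100a10, had 5780 in 5/6Nx and 7385 in sham, a difference of -0.15 beside the -1.13 of S100a10. Cacybp, the calcyclin-binding protein, and Sugt1, a co-chaperone that also binds S100a6, had differences of -0.99 and -0.78 beside 0.50 for S100a6. Myh9, the myosin heavy chain bound by S100a4, had 0.04. Fgf1 had -0.79 on the probe that represents it and -0.12 on its other probe, and Syt1, which is released in the same complex with S100a13, had 0.22. After scaling to the 75th percentile none of these 6 partners was 2-fold apart, but Cacybp was 2.22-fold lower after scaling to the median and 2.31-fold lower after scaling to the spike-in probes, where Fgf1 also just passed 2-fold (-1.003).

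Other EF-hand genes of neurons, which encode calcium buffers and sensors of a different family, lay mostly below 0. Of 28 listed genes 27 were measured, of which 0 lay 2-fold or more above and 4 as far below, with 8 above 0, 19 below 0 and a median of -0.19 (from -0.41 to -0.19 over the alternatives). The lower genes were Necab1 (-1.64), with 462 in 5/6Nx and 1653 in sham, Necab3 (-1.23), the retinal sensor gene Rcvrn (-1.09) and the parvalbumin gene Pvalb (-1.03). The other probe of Pvalb stood at -0.38. No test separates this list from the S100 genes.

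Markers of the cells that can hold S100 transcripts were set beside these values, with summed signals in multiples of the array's 75th percentile. S100b (-0.35) stood beside 14 astrocyte markers with a median of -0.13, of which 1 was at least 2-fold higher, Gfap at 1.12, and 0 were lower, with Aqp4 at -0.83. The 3 probes of Gfap ranged from 0.75 to 1.28, so its 2-fold call depends on the probe. The sum of the 14 astrocyte markers was 487 in 5/6Nx and 501 in sham. Without Aldoc, the brightest of them, it was 249 in 5/6Nx and 274 in sham. The 12 oligodendrocyte and myelin markers had a median of -0.33, with 1 higher, 2 lower (Opalin at -2.30 and Ugt8a at -1.87) and sums of 272 in 5/6Nx and 226 in sham. The higher gene was Mobp (1.44), whose 3 probes ranged from -0.0038 to 1.44. The sum rested on Ermn, with 167119 in 5/6Nx and 109381 in sham and a difference of 0.81 (its other probe gave -1.22). Without Ermn, an alternative chosen after seeing the data, it was 140 in 5/6Nx and 151 in sham. S100a10 (-1.13) and S100a4 (1.04), which fibroblasts and leukocytes can both express, differed in direction. S100a6 and S100a11, also abundant in fibroblasts, had 0.50 and -0.02, the latter within the technical error. The markers of fibroblasts and blood cells were mostly lower in 5/6Nx, but most of the measured blood markers are of red cells. Of 13 leptomeningeal fibroblast markers 11 were lower, with a median of -2.18 (-1.57 without background subtraction), led by Slc22a2 (-3.11) and Slc22a6 (-2.61), and sums of 13.3 in 5/6Nx and 52.1 in sham. Of 13 blood cell markers 9 were measured and 7 lower, led by Hbb-bt (-3.97) and Alas2 (-3.87). The median of the 9 was -3.53 (-2.83 without background subtraction), with sums of 18.5 in 5/6Nx and 211 in sham. Of the 7, Hbb-bt, Hbb-bs, Hba-a1, Hba-a2 and Alas2 are genes of red cells, Pf4 (-2.40) of platelets and Camp (-1.28) of neutrophils. The other probe of Camp gave -0.99, just short of 2-fold. The neutrophil genes Elane (0.17) and Mpo (-0.50) were not 2-fold lower. Ngp, Ltf, Retnlg and Ppbp were above background in sham only. Choroid plexus markers were higher in 13 of 14 measured genes, with a median of 2.83 (from 2.23 with the mean over probes to 3.45 with dim probes kept), led by Ttr (6.66) and Clic6 (4.90), and sums of 230 in 5/6Nx and 19.2 in sham (80.04 in 5/6Nx and 17.7 in sham without Ttr). The part of these cells in the values of S100a4, S100a10 and the other S100 genes was not tested. The 9 endothelial markers had 7 above 0 and 2 below, 0 of them 2-fold apart, with a median of 0.20 and the largest differences in Slco1a4 (0.49) and Slc2a1 (0.34). This median lay above that of all measured genes by 0.15, and by 0.07 to 0.16 over the alternatives. The 10 microglia markers had 5 above 0 and 5 below, with a median of -0.02, and the 2 that were 2-fold lower were Aif1 (-1.29) and Tmem119 (-1.11). Relative to all measured genes this median ranged from -0.14 to 0.04 over the alternatives. The 9 ependymal markers had 4 above 0 and 5 below, with a median of -0.15, 1 gene 2-fold lower (Rarres2 at -1.33) and 1 higher (Cfap43 at 1.25, with 0.20 on its other probe). Summed signals were 70.2 in 5/6Nx and 68.9 in sham for endothelial, 249 in 5/6Nx and 209.8 in sham for microglia, and 6.71 in 5/6Nx and 9.31 in sham for ependymal markers. Without Ly6c1 the endothelial sum was 40.9 in 5/6Nx and 41.5 in sham. Without Siglech, whose probes ranged from -0.27 to 0.37, the microglia sum was 127.5 in 5/6Nx and 116.5 in sham. Without Rarres2 the ependymal sum was 5.46 in 5/6Nx and 6.17 in sham. These alternatives were chosen after seeing the data.

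**Figure D4:**
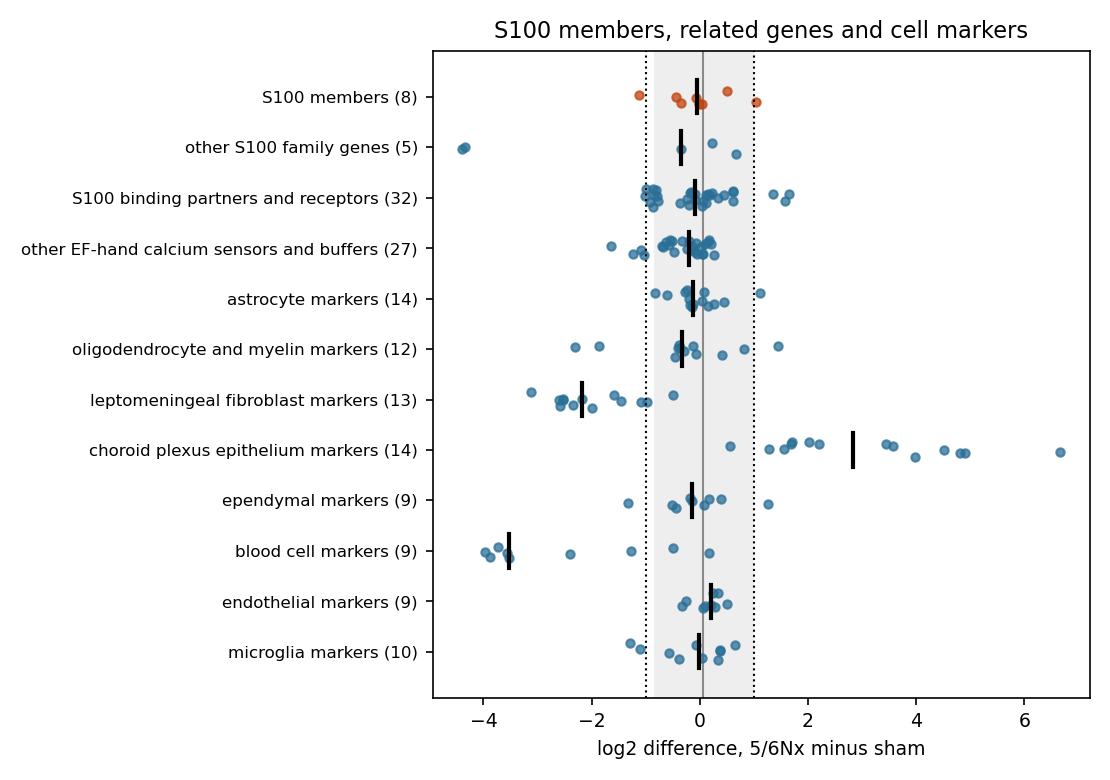
Log2 difference, 5/6Nx minus sham, of the S100 genes, related genes and cell markers (points, with the number measured in brackets) and the median of each list (black bars). The grey band holds the middle 90% of all measured genes, the grey line is their median (0.05), and dotted lines mark 2-fold. The S100 genes scatter on both sides of 0, with a median of -0.05.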

How the data were processed

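Hippocampal total RNA of 5/6Nx mice (1 array) and sham mice (1 array) was measured on 1-colour arrays. The deposited scanner files hold linear intensity values per spot, background-subtracted and detrended within each array by Feature Extraction 10.7.1.1, per the file headers, and by version 9.5.1.1, per the submitters' processing notes. The deposited series table holds 1 linear intensity per probe. Its columns have equal medians (123.9) and correlate at 1 with their own array, as quantile normalization gives, and how the authors made it is not given in the sources used here.

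Control spots and outlier spots (97 in 5/6Nx, 105 in sham) were dropped, processed intensities were divided by the 75th percentile of their array and put on the log2 scale, and spots of a probe were averaged. A gene took its brightest probe (by mean log2 value) among those well above background on either array, and counted as measured if that probe was so on both. Symbols came from RefSeq (GRCm38.p6) for 31381 of 55681 probes, and the others kept the file's name. Calls are made at 2-fold, which is a size and not a test. For genes above background on 1 array only, folds are bounds: the dim side was set to its own value or to the dimmest probe above background on that array, whichever was brighter.

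The members and lists were chosen with earlier results of these data known. The rule named all 8 members, all measured other S100 genes and the 2 to 4 largest differences of each other list. The calculation was tested on simulated data. Alternatives covered normalization, background correction, choice of probe, filters and thresholds, using Python 3.11.15, statsmodels 0.14.6 (lowess, span 0.3) and limma 3.58.1 (normexp, offset 50). Normexp and no background subtraction both start from the spots' mean signals, so they also leave out the scanner software's detrending.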

Additional observations from a re-analysis of the deposited data

How the results depend on the processing

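No paired analysis was possible because there is a single array in each group, and for the same reason no array could be left out. The 8 genes were recomputed under 10 alternatives. Of the 80 values, 72 moved by less than 0.20, the median SD between probes of a gene, and the other 8 are those of 1 alternative, scaling to the spike-in probes, which moves every gene by the same -0.22. Under it the differences were -0.18 for S100a1, 0.82 for S100a4, 0.28 for S100a6, -1.35 for S100a10, -0.24 for S100a11, -0.29 for S100a13, -0.67 for S100a16 and -0.57 for S100b, with a median of -0.26. The sign of S100a1 held in 5 of 10 alternatives, and that of the other 7 genes in all 10, some of which reuse the same values. The number of S100 genes at least 2-fold higher fell to 0 with scaling to the median, lowess, spike-in scaling, normexp or no background subtraction, where S100a4 lay between 1.77-fold and 1.995-fold. At 3-fold it was 0 higher and 0 lower, with 12 higher and 19 lower among the listed genes, against 19 and 30 at 2-fold. Scaling to the median moved all genes by -0.16.

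Of all 2-fold differences 59.8% were higher, against 49.2% with quantile normalization, 42.3% with median scaling, 47.9% with lowess, 36.15% with spike-in scaling and 49.4% in the authors' table. Over all genes 1268 were higher and 852 lower, and these counts were 799 and 1411 with spike-in scaling, 635 and 468 without background subtraction, 683 and 497 under normexp, 2590 and 1668 when dim probes were kept, 3549 and 2313 at 1.5-fold, and 387 and 245 at 3-fold.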
